A study of Mus musculus with 6 samples.

Results

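The cells described here were 902 single cells of the mouse jejunal epithelium whose RNA was rich in transcripts of the G2 and M phases of the cell cycle, and they are called dividing progenitors below. They were selected on measured values. A barcode called as a cell was taken if it held at least 750 genes and at most 20% of its UMIs (unique molecular identifiers, each standing for 1 captured RNA molecule) from mitochondrial genes, and if *Mki67*, *Top2a*, *Cdc20*, *Ccnb1*, *Ccnb2*, *Cenpf*, *Ube2c*, *Tpx2* and *Nusap1* together made up at least 0.2% of its UMIs. Barcodes with 2% or more of UMIs from the Paneth cell gene *Lyz1*, or with any UMI of the immune genes *Cd3e*, *Cd3g* or *Ptprc*, were left out. The 902 cells were 3.38% of the 26696 barcodes that passed the filters on genes and mitochondrial UMIs, and 1.52% of all 59457 called barcodes. Since these 9 genes chose the cells, their levels in them are a description.

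The study asked how a high-fat diet and vertical sleeve gastrectomy (VSG), a weight-loss operation that removes a large part of the stomach, alter the lining of the small intestine. Male wild-type C57BL/6J mice were kept for 16 weeks on a low-fat diet (LFD, 10% of calories as fat) or a high-fat diet (HFD, 60%), and were then given a sham operation or VSG. The groups were LFD sham (3 mice pooled), HFD sham (3 mice pooled) and HFD VSG (2 mice pooled), and tissue was taken 5 weeks after the operation, at an age of about 30 weeks. Epithelium released with EDTA was strained into a crypt-labelled and a villus-labelled suspension per group, and each suspension became 1 droplet library of 3′ ends of RNA.

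Each condition was therefore 1 pooled library, no test of diet or surgery could be made, and every interval printed for those comparisons covers counting error only. The called barcodes of a library held 60522766 to 155522445 UMIs. The dividing progenitors numbered 41, 47 and 84 in the crypt-labelled libraries of LFD sham, HFD sham and HFD VSG and 297, 151 and 282 in the villus-labelled ones, an order of libraries that is kept in all lists of 6 values below. The 2 libraries of HFD VSG stood apart in a gene list named damaged droplets, described with the surgery comparison. The median depth of the dividing progenitors was 25772, 14735 and 22938 UMIs in crypts and 22343, 17849 and 43230.5 UMIs in villi. Between 17 and 43 called barcodes were shared by any 2 libraries, 8 dividing progenitors carried a barcode that was also called in another library, and 0 barcodes belonged to dividing progenitors of 2 libraries.

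Intestinal progenitors divide in the lower and middle crypt, between the stem cells at its base and the differentiated cells that move up the villus. As a cell leaves S phase, in which DNA and the histones that pack it are made, it builds up cyclin B with its kinase *Cdk1*, condenses its chromosomes, assembles a spindle, holds at the spindle checkpoint until every kinetochore is attached, and then lets the anaphase-promoting complex destroy cyclin B and securin. Most genes of these steps are transcribed together late in the cycle, which is why their transcripts mark cells about to divide or dividing.

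The fraction labels did not match where such cells are known to sit. The villus-labelled libraries held more dividing progenitors than the crypt-labelled ones in all 3 pools, 7.33 times as large a share of cells in LFD sham, 2.45 times in HFD sham and 3.74 times in HFD VSG. Cells with stem markers outside division, defined below, were also more numerous in the villus-labelled libraries (177, 76 and 282) than in the crypt-labelled ones (37, 42 and 104). With 3 pools, an exact two-sided sign-flip test of the difference between labels cannot go below p = 0.25. The shares are given as values, with no other test run on them, and "crypts" and "villi" below name the label of a library and not a position in the tissue. In droplets with fewer than 100 UMIs, RNA of Paneth cells, which sit at the crypt base, was also higher in the villus-labelled libraries, and RNA of enterocytes in the crypt-labelled ones. Whether the labels were exchanged was not tested. If they were, every direction between crypts and villi given here would turn.

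Promoters of late cell cycle genes are known for 2 short elements, the CCAAT box, bound by NF-Y, and the cell cycle genes homology region (CHR), bound by MuvB complexes. The 300 bases around the start of each gene (250 before, 50 after) in RefSeq windows of build GRCm38.p6 were searched on both strands for CCAAT and for TTTGAA, the core of the CHR. A window was given for 8 of the 9 selecting genes. CCAAT was found in 7 of the 8 (87.5%) and TTTGAA in 6 of the 8 (75.0%), against 37.9% and 18.1% of all 27025 windows. Of the other 40 G2/M genes with a window, from the cell cycle list distributed with the Seurat software, 75.0% held CCAAT and 65.0% TTTGAA. Of 31 S phase genes, 71.0% held CCAAT, 16.1% TTTGAA and 35.5% one of the E2F motifs TTTGGCGC, TTTGCCGC, TTTCGCGC and TTTCCCGC, which were in 0 of the 8 windows of the selecting genes and in 2.32% of all windows. A match of letters is not a bound site. The last 150 bases before the start of 4 selecting genes are printed because 3 of them hold both elements within this stretch and the fourth, of *Ccnb1*, holds CCAAT without TTTGAA. They lie at chr4:118437344-118437493 (*Cdc20*, minus strand), chr11:99024190-99024339 (*Top2a*, minus strand), chr2:164769779-164769928 (*Ube2c*, plus strand) and chr13:100786487-100786636 (*Ccnb1*, minus strand), and capitals mark CCAAT or TTTGAA on either strand (ATTGG and TTCAAA when read on the strand of the gene).
Cdc20: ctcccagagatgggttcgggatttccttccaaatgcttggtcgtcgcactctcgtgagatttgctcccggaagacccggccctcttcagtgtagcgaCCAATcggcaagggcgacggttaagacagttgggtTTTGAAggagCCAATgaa
Top2a: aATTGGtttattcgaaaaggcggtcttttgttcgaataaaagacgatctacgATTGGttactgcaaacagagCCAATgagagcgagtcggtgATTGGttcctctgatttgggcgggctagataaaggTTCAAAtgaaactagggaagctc
Ube2c: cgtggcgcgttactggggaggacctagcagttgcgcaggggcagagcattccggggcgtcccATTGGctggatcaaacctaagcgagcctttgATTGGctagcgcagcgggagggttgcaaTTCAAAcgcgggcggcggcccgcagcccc
Ccnb1: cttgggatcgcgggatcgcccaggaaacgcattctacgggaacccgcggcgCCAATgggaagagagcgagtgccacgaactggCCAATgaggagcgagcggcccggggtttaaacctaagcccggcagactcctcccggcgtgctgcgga
In the printed stretches TTTGAA began 18 bases before the start of *Cdc20*, 23 before that of *Top2a* and 29 before that of *Ube2c*. In *Top2a* and *Ube2c* every CCAAT of the stretch lay further out, while *Cdc20* had one on either side, 53 and 8 bases before the start. *Mki67*, not printed, also held both elements within 150 bases, with TTTGAA 116 and 98 bases before its start. Elsewhere TTTGAA began 179 bases before the start in *Top2a*, 167 before and 4 after it in *Ccnb2*, and 2 after it in *Cenpf*.

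The 5 genes that name these cells were present in most of them. A UMI of *Mki67*, the antigen Ki-67 that coats mitotic chromosomes, was found in 98.1% of the 902 cells, of *Top2a*, the topoisomerase that untangles replicated DNA, in 95.3%, of *Cenpf*, a kinetochore protein, in 93.3%, of *Ccnb2*, cyclin B2, in 82.6%, and of *Cdc20*, the activator of the anaphase-promoting complex, in 78.2%. In 523 cells (58.0%) all 9 selecting genes were present. *Mki67* was the most abundant of the 9 in 47.6% of cells, *Top2a* in 33.9% and *Ube2c*, the ubiquitin-conjugating enzyme of the anaphase-promoting complex, in 14.4%. In enterocyte-marker cells (cells with at least 2% of UMIs from *Sis*, *Apoa1*, *Apoa4*, *Fabp1* and *Fabp2* and under 0.05% from the 9 genes) the 9 genes summed to 7.84 to 32.0 CPM per library (the UMIs of a gene or list over all UMIs of the same cells of a library, brought to the same total, the scale of all levels below), against 3558 to 4421 in the dividing progenitors.

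The threshold cut through a continuous range. Among barcodes that met the other criteria, 138 dividing progenitors held 0.2% to 0.25% of their UMIs in the 9 genes and 177 barcodes just outside held 0.15% to 0.2%. In all, 1001 barcodes lay between 0.05% and 0.2%, while 16769 held no UMI of the 9 genes at all. The 902 cells held 69.3% to 79.2% of the UMIs of the 9 genes in each library's epithelial cells.

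*Mki67* was at 1284, 1384 and 1230 CPM in the crypts of LFD sham, HFD sham and HFD VSG and at 1293, 1223 and 706 in the villi. *Ube2c* was at 449, 455 and 548 in crypts and 465, 445 and 776 in villi. The villus-labelled HFD VSG library thus stood apart on both genes, low on the first and high on the second. *Cdc20* was at 121, 154 and 134 in crypts and 135, 131 and 167 in villi. *Cenpf* was at 469, 418 and 480 in crypts and 476, 454 and 350 in villi, lowest again in the villi of HFD VSG. *Top2a* ran from 825 to 1279 and *Nusap1* from 237 to 348 over the 6 libraries, while *Tpx2*, which nucleates spindle microtubules, lay between 141 and 165. In the villi of HFD VSG *Mki67* led in 19.1% of cells, *Top2a* in 43.3% and *Ube2c* in 35.1%, and a median cell held 150.5 UMIs of the 9 genes, against 52.0 to 100.5 in the other 5 libraries. The part of that depth in the order of the leading genes was not tested.

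**Figure D1:**
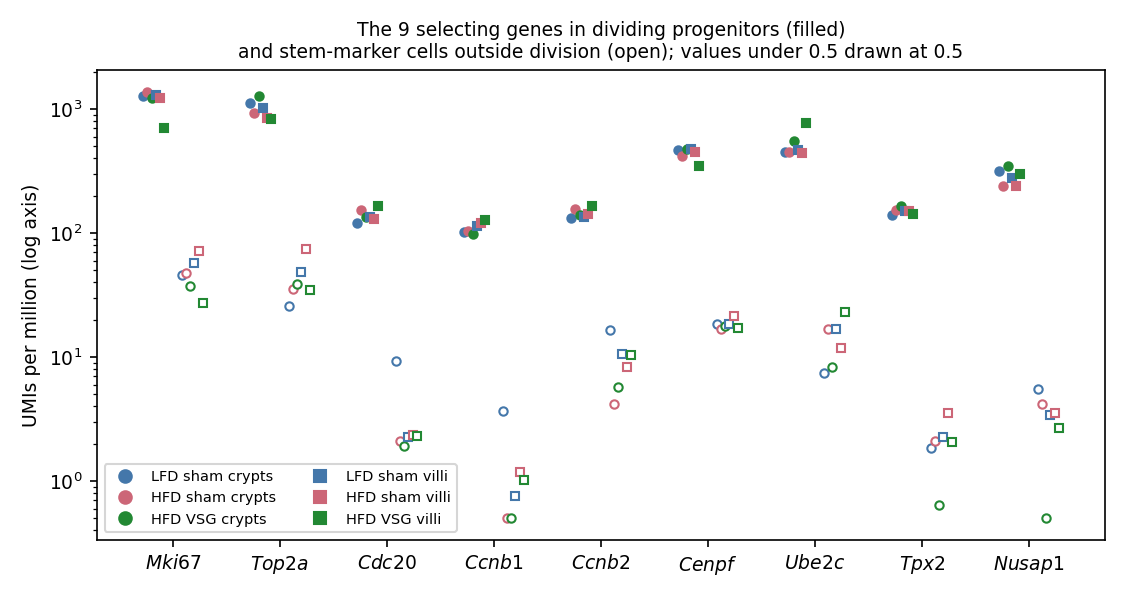
Level of each of the 9 selecting genes (x axis) in CPM (y axis, log scale), 1 point per library. Colour and shape give the group and label, filled points are dividing progenitors, and open points are stem-marker cells outside division. Filled points lie above the open points of the same gene, with *Mki67* in the villi of HFD VSG (706) below and *Ube2c* there (776) above the rest.

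For comparison, stem-marker cells outside division were taken as cells with at least 0.2% of UMIs from *Lgr5*, *Ascl2*, *Olfm4*, *Slc12a2* and *Smoc2*, the genes of crypt base stem cells, and under 0.05% from the 9 selecting genes. There were 718 of them over the 6 libraries, and each library was its own control. Both classes were selected, one by dividing genes and the other by stem genes, so the contrast is a description with no test. Sums of a list are over all its genes. Single genes were ranked among the 5287 with at least 20 UMIs in the dividing progenitors of every library, a minimum that genes low in these cells could not pass, so genes of the lists are not counted by direction here.

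Genes that drive mitosis were higher in dividing progenitors in every library. The list of mitotic kinases and switches, as a sum of its UMIs, was higher by 3.14 to 4.13 on the log2 scale. *Birc5*, survivin, the targeting subunit of the chromosomal passenger complex, had a median of 337 CPM against 6.41 in stem-marker cells. *Plk1*, the polo-like kinase of mitotic entry, had 110 against 2.07, and *Cks2*, a small subunit of cyclin-dependent kinase complexes, 219 against 33.3. In stem-marker cells, which were chosen for little or no RNA of the selecting genes, these levels were low but above 0. *Ccna2*, cyclin A2, was at 181, 177 and 206 CPM in the crypts and 173, 167 and 167 in the villi of the dividing progenitors, a narrow range over groups and labels.

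Kinetochore and spindle genes behaved in the same way. The kinetochore and checkpoint list was higher by 2.53 to 3.18 as a sum, and the spindle and motor list by 2.32 to 2.74. *Cenpa*, the histone H3 variant that marks centromeres, had a median of 187 CPM against 6.94. *Kif11*, the motor that pushes spindle poles apart, was at 214, 233 and 259 in crypts and 232, 207 and 159 in villi. *Hmmr*, a spindle assembly factor, was at 178, 184 and 214 in crypts and 190, 166 and 160 in villi, and its median in stem-marker cells was 0.128. Not all members of these lists were particular to division: *Stmn1*, which destabilises microtubules, had 557 against 350 and *Hjurp*, the chaperone of *Cenpa*, 319 against 127.

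The list of chromatin condensation genes was higher by 1.42 to 1.71 as a sum, less than the preceding lists. *Smc4*, a subunit of condensin, had a median of 470 CPM against 58.6, and *Hmgb2*, a chromatin protein abundant in dividing cells, 1587 against 192. *Hmgb1*, its relative found in most cells, had 1789.9 against 963. By the rule of the highest smallest ratio over the 6 libraries, the 15 genes most like the selecting ones were *Kif11*, *Hmmr*, *Birc5*, *Hist1h1b*, *Cenpa*, *Hist1h2ab*, *Prc1*, *Ccna2*, *Aspm*, *Knl1*, *Anln*, *Kif4*, *Racgap1*, *Hist1h3c* and *Plk1*. They ranged in their smallest log2 ratio from 5.08 for *Kif11* to 4.09 for *Plk1*, with sums under 3 UMIs in stem-marker cells set to 3.

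As a sum, genes of DNA synthesis were near the level of stem-marker cells and histones were not. The S phase list differed from stem-marker cells by between −0.15 and 0.36 on the log2 scale as a sum. *Tyms*, thymidylate synthase, had a median of 125 CPM against 46.4, while *Nasp*, a histone chaperone, had 161 against 155. *Cdca7*, of the same list, had 73.1 against 216 and was lower by 1.06 to 1.81 on the log2 scale, so single genes differed in both directions. The replication histones were higher by 2.79 to 4.07 as a sum. *Hist1h1b*, a linker histone, was at 1338, 1238 and 1778 CPM in crypts and 1178, 774 and 1205 in villi, and its median in stem-marker cells was 15.2. Replication histone mRNAs end in a stem-loop and mostly lack a poly(A) tail, so their capture by an oligo(dT) primer is partial.

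The list of G1 cyclins and their kinases differed by −0.21 to 0.05 as a sum, but its genes were uneven. *Cdk6*, a kinase partner of the D cyclins, was lower by 1.06 to 1.72 on the log2 scale, with a median of 72.1 CPM against 192, and *Myc*, a transcription factor of growth, had 37.5 against 59.1. *Ccnd1*, cyclin D1, had 149 against 177. *Cdkn1b*, the inhibitor p27, had 102 against 72.5, and *Btg2*, an antiproliferative gene, 107 against 167 and was lower in 6 of 6 libraries.

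The dividing progenitors also differed from stem-marker cells in genes outside the cycle. Cholesterol synthesis genes were higher by 0.75 to 1.23 as a sum. *Hmgcs1*, which commits acetyl units to the pathway, had a median of 134 CPM against 45.5 and *Idi1*, isopentenyl diphosphate isomerase, 87.5 against 39.4. Nuclear genes of oxidative phosphorylation were higher by 0.28 to 0.34 and ribosomal protein genes lower by 0.21 to 0.35, both as sums. *Dmbt1*, a secreted scavenger receptor protein listed here with early absorptive genes, had 1170 against 382. Stem genes were lower, *Olfm4* at 873 against 4584, which follows from the way the stem-marker cells were chosen and is not a result.

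**Figure D2:**
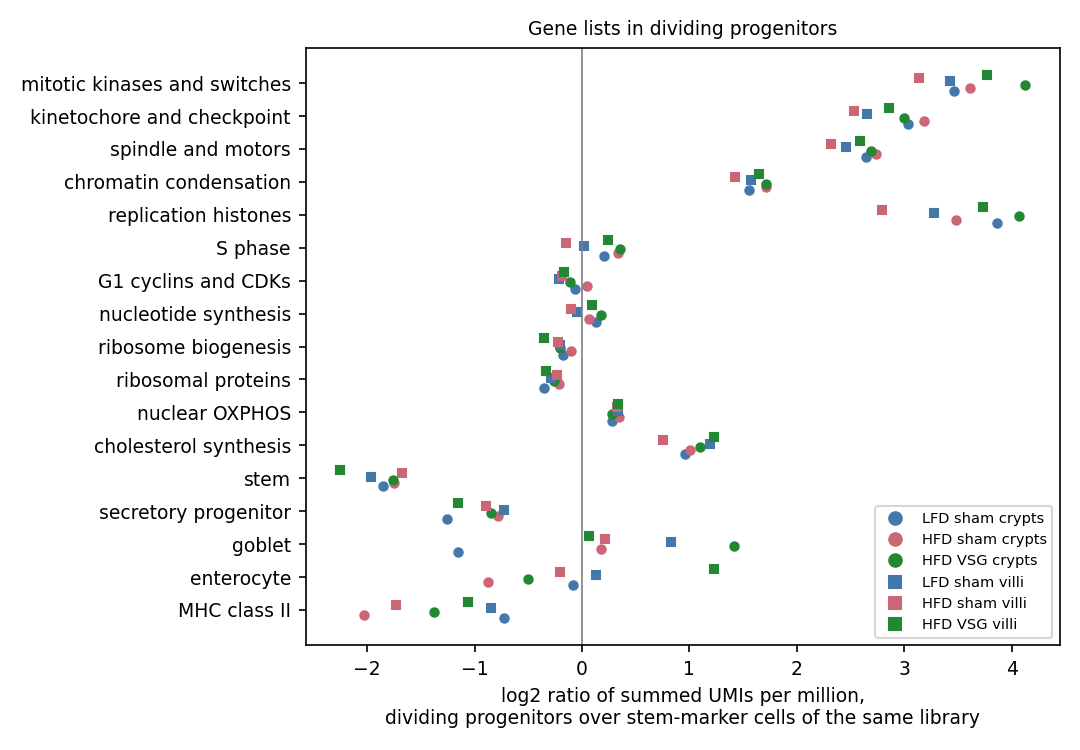
Log2 ratio (x axis) of the summed CPM of each gene list (y axis) in dividing progenitors over stem-marker cells of the same library, 1 point per library, coloured by group and shaped by label, with a line at 0. Mitotic, kinetochore, spindle and histone lists lie above 2 in all 6 libraries, cholesterol synthesis between 0.75 and 1.23, and the S phase list on both sides of 0.

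Cells with no UMI of *Cdc20* and cells with at least 3 UMIs were set side by side, as a description, since *Cdc20* is among the selecting genes and depth differed between them. In the villi of LFD sham, 73 cells without *Cdc20* held 3766 CPM of the S phase list and 140 cells with at least 3 held 1635. Over the 6 libraries the S phase list lay between 3171 and 3819 in the cells without and between 1624 and 1860 in the cells with at least 3, and the ranges did not overlap. *Ube2c* went the other way, from 207 to 361 in the cells without to 535 to 873 in the cells with. The cells without *Cdc20* were shallower in all 6 libraries, with medians of 5376.5 to 24272 UMIs against 19591 to 46323, and cells thinned to equal depth were not compared for this split. Across cells within a library, the 46 G2/M genes of the Seurat list that were not used to select the cells rose with the 9 selecting genes (Spearman's rho 0.65 to 0.87 over the 6 libraries, 902 cells in all), S phase genes went with replication histones (0.32 to 0.58) and not clearly with the selecting genes (−0.36 to 0.12). Cells of a library share its depth and free RNA, and lists given as a share of a cell's UMIs constrain each other, so these values carry no p.

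Genes of several lineages were read in these cells. Of the 902, 193 (21.4%) held at least 0.2% of UMIs from the 5 stem genes, against 0.309% of 17808 enterocyte-marker cells, and 109 (12.1%) held at least 0.5% from goblet genes, the makers of mucus, against 2.97%. Stem-marker cells held the goblet share in 7.24% of 718, and in the villi of HFD sham it was 18.4% of them against 16.6% of dividing progenitors. Thinned to 1500 UMIs per cell, with 892 dividing progenitors deep enough to keep, the shares were 26.1% and 12.1%. Limits of 0.2% were passed by 4 cells for enteroendocrine genes, 5 for tuft cell genes and 5 for secretory progenitor genes, the last of which became 38 of 892 after thinning. That was 4.26% of dividing progenitors, below the 57 of 715 stem-marker cells (7.97%) that passed the same limit after thinning. Across cells, the stem list went against the enterocyte list (rho −0.70 to −0.35) and against nuclear genes of oxidative phosphorylation (−0.59 to −0.49), and with secretory progenitor genes (0.40 to 0.62). A doublet score marked 8, 4 and 14 of the dividing progenitors in crypts and 21, 12 and 38 in villi, and they were kept. The marked share exceeded that of all cells passing the filters in the crypts of LFD sham (19.5% against 11.1%). It also did in the crypts (16.7% against 10.95%) and villi (13.5% against 8.79%) of HFD VSG. It was lower in the crypts (8.51% against 9.74%) and villi (7.95% against 12.2%) of HFD sham and in the villi of LFD sham. A few cells decided some totals: of 318 UMIs of *Chgb*, chromogranin B of enteroendocrine granules, in the crypts of HFD sham, 99.1% came from 1 cell, and of 752 UMIs of *Gcg*, the glucagon gene, in the villi of LFD sham, 99.3% came from 1 cell. Immune genes summed to 0.677 to 15.8 CPM with 4 to 12 of 14 listed genes at 0, and mesenchymal and endothelial genes to at most 1.02 with 8 to 10 of 10 at 0. *Cd3e*, *Cd3g* and *Ptprc* are among the 14 immune genes and were at 0 by the selection. Barcodes that passed the cell cycle threshold but were left out for an immune UMI numbered 0, 4 and 3 in crypts and 28, 3 and 20 in villi.

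The share of dividing progenitors among cells that passed the filters was 0.889% in the crypts of LFD sham (95% exact binomial interval 0.639 to 1.20), 1.43% in those of HFD sham (1.05 to 1.90) and 1.61% in those of HFD VSG (1.28 to 1.98). In the villi it was 6.52% (5.82 to 7.27), 3.50% (2.97 to 4.09) and 6.00% (5.34 to 6.72). In villi the share in HFD sham was thus 0.537 times that in LFD sham, and the share in HFD VSG was 1.72 times that in HFD sham. In crypts the corresponding ratios were 1.61 and 1.12, in the first case the opposite direction to the villi. With every cell thinned to 1500 UMIs the ratio of HFD sham to LFD sham became 1.07 in crypts and 0.483 in villi, and that of HFD VSG to HFD sham 1.42 and 1.84. With at most 10% mitochondrial UMIs per cell, the shares in villi were 9.23%, 5.33% and 6.40%, so that HFD VSG lay nearer to HFD sham. The 9 genes summed over all epithelial cells, which needs no threshold per cell, were at 106, 108 and 140 CPM in crypts and 712, 290 and 457 in villi. In droplets with fewer than 100 UMIs, which hold free RNA and not cells, they were at 55.6, 33.3 and 62.5 in crypts and at 313, 158 and 315 in villi. How many crypts each suspension took up cannot be told apart from how many cells divided in the mice, since both would move the share in the same way and each group was 1 suspension.

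**Figure D3:**
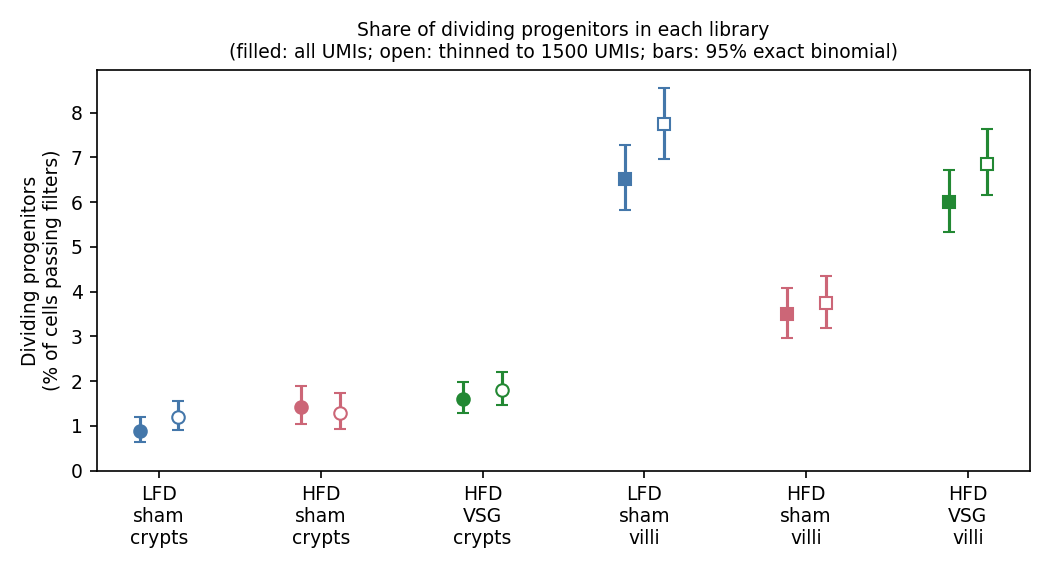
Share of dividing progenitors (y axis, percent of cells passing the filters) in each of the 6 libraries (x axis), from all UMIs (filled) and with each cell thinned to 1500 UMIs (open), with 95% exact binomial intervals. The filled points of the 3 villus-labelled libraries lie between 3.50% and 6.52% and their open points between 3.74% and 7.74%, all above the crypt-labelled ones, and HFD sham is the lowest of the 3.

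Within the dividing progenitors, MHC class II genes, the lectins *Reg3b* and *Reg3g* and several cholesterol synthesis genes were lower in HFD sham in both labels. The comparison set HFD sham against LFD sham, label by label. A log2 ratio of CPM past 0.5 in size is used for counts. Of 6885 genes whose libraries averaged 20 UMIs or more in crypts, 11.3% were past +0.5 and 9.31% past −0.5. Of 10258 genes in villi, 5.76% and 4.52% were. Over both labels 76 genes were past +0.5 and 41 past −0.5, of 6882 measured in both.

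Of the 9 selecting genes, 0 were past 0.5 in either label, with ratios between −0.40 and 0.35 in crypts and −0.27 and 0.11 in villi. The selection set a lower limit on the sum of these 9 genes in the cells of every library, so nothing is read from this count. Of 22 mitotic kinases and switches measured in villi, 1 was past +0.5 and 0 past −0.5, and of 26 kinetochore genes and 32 spindle genes, 0 were past either limit. In crypts, where counts were lower, 3 of 21 mitotic kinases, 1 of 24 kinetochore genes, 6 of 32 spindle genes and 7 of 36 S phase genes were past +0.5, and 1, 4, 0 and 1 were past −0.5. *Bora*, an activator of Aurora A, was the 1 gene of these lists past +0.5 in both labels, at 36.2 and 68.4 CPM in crypts and 48.1 and 68.1 in villi of LFD sham and HFD sham. *Cdkn2b*, the CDK4 inhibitor p15, was at 12.4 and 30.4 in crypts and 28.8 and 49.8 in villi, higher in HFD sham by 1.29 (95% interval 0.23 to 2.42) and 0.79 (0.47 to 1.10).

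Replication histones were lower in HFD sham in villi. There 10 of 16 were past −0.5 in HFD sham, with a median of −0.55 against 0.02 for all genes, and in crypts 2 of 15 with a median of −0.18. *Hist1h2ab*, a core histone H2A, was at 241 and 152 CPM in the crypts of LFD sham and HFD sham and 217 and 136 in the villi, lower by 0.67 and 0.68. *Hist1h1b* was lower by 0.61 in villi (interval −0.67 to −0.54) and by 0.11 in crypts (−0.23 to 0.01). In stem-marker cells the sum of replication histones differed between HFD sham and LFD sham by 0.17 in crypts and −0.06 in villi.

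MHC class II genes, which present antigen and which intestinal stem and progenitor cells are known to express, were lower in HFD sham. Their sum was 369, 39.2 and 35.9 CPM in the crypts of LFD sham, HFD sham and HFD VSG and 375, 33.2 and 41.3 in the villi, so the 2 LFD libraries stood alone and both HFD groups were low. All measured genes of the list were past −0.5 in HFD sham, 2 of 2 in crypts and 6 of 6 in villi. The list held 356, 31 and 71 UMIs in crypts and 2626, 98 and 498 in villi. Its genes thus reached the minimum of 20 UMIs on average mainly through LFD sham, so nothing is read from that count. *Cd74*, the invariant chain, was lower in HFD sham by 3.14 in crypts (interval −3.98 to −2.40) and 4.09 in villi (−4.61 to −3.61), and *H2-Ab1*, a beta chain, by 4.17 (−6.48 to −2.56, with 3 UMIs in HFD sham) and 2.87 (−3.56 to −2.25). A UMI of the list was found in 97.6%, 34.0% and 32.1% of dividing progenitors in crypts and 83.8%, 27.2% and 44.0% in villi. LFD sham was also highest outside the dividing progenitors, with 1411, 176 and 116 CPM in crypts and 1333, 106 and 59.4 in villi in enterocyte-marker cells, and 608, 161 and 93.5 in crypts and 674, 110 and 86.2 in villi in stem-marker cells. Droplets with fewer than 100 UMIs held 1171, 155 and 103 in crypts and 879, 59.6 and 45.5 in villi. The level in dividing progenitors was below that of stem-marker cells in all 6 libraries, by 0.72 to 2.03 on the log2 scale. Free RNA of these genes moved with the diet in the same direction. With free RNA subtracted by the fractions set for each library, *Cd74* was lower in HFD sham by 4.06 in crypts and 4.28 in villi and *H2-Ab1* by 2.83 in villi, while *H2-Ab1* in crypts and *H2-Eb1* in villi were left with under 3 UMIs in a library and have no value. With a different subtraction, of the median content of cell-free droplets on the plateau of barcode totals per cell, *Cd74* was lower by 3.16 and 4.08.

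2 antimicrobial lectins were likewise highest in LFD sham. *Reg3g*, which kills gram-positive bacteria, was at 1385, 187 and 223 CPM in crypts and 1515, 256 and 447 in villi. *Reg3b*, its relative, was at 3126, 929 and 674 in crypts and 4034, 713 and 509 in villi. Both were lower in HFD sham than in LFD sham, *Reg3g* by 2.89 and 2.56 on the log2 scale and *Reg3b* by 1.75 in crypts, with 50% of the UMIs of *Reg3b* in crypts and 42.8% in villi of HFD sham from 1 cell. In droplets with fewer than 100 UMIs *Reg3g* was at 2743 and 1064 in the crypts and 3410 and 940 in the villi of LFD sham and HFD sham. After the subtraction by set fractions, *Reg3b* in both labels and *Reg3g* in crypts were left with under 3 UMIs in a library and have no value, and *Reg3g* in villi was lower by 3.57. After the subtraction of the plateau, *Reg3g* was lower by 3.15 and 2.59 and *Reg3b* by 2.05 and 2.60. The list was mixed, since *Reg1* and *Reg3a* were past +0.5 in both labels, and its median was 0.04 in crypts and −0.07 in villi. *Dmbt1* was lower by 0.90 and 0.67, at 2052 and 1103 in crypts and 1942 and 1218 in villi.

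Cholesterol synthesis genes were lower in HFD sham, 8 of 17 past −0.5 in crypts and 5 of 20 in villi, with 0 past +0.5 in either and medians of −0.34 and −0.35. *Fdft1*, squalene synthase, was at 37.3 and 15.2 CPM in the crypts and 39.1 and 22.0 in the villi of LFD sham and HFD sham, lower by 1.29 (interval −2.37 to −0.32) and 0.83 (−1.24 to −0.43). *Idi1* was lower by 0.80 and 0.71, *Cyp51*, lanosterol demethylase, by 1.05 and 0.74, and *Sqle*, squalene epoxidase, by 0.71 (−1.67 to 0.20) and 0.75. In HFD VSG the levels were near those of LFD sham in crypts, with *Fdft1* at 34.9 and *Cyp51* at 74.3 against 78.7 in LFD sham. In villi *Fdft1* was at 34.2 and *Cyp51* at 55.8 against 98.1 in LFD sham, so the 2 genes differed there. As a sum the list was lower in HFD sham by 0.41 and 0.39 in dividing progenitors, by 0.23 and 0.51 in enterocyte-marker cells, and in stem-marker cells by 0.45 in crypts but not in villi (0.04). Free RNA of the list was at 475, 375 and 475 CPM in the crypts of LFD sham, HFD sham and HFD VSG. In the villi it was at 543, 390 and 640. Free RNA was thus lower in HFD sham than in LFD sham in both labels, as in dividing progenitors. The part of free RNA in these ratios was not tested.

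Of 18 immediate early and heat shock genes, 6 were past +0.5 and 5 past −0.5 in HFD sham in crypts, and 2 and 2 in villi. The chaperone genes *Hsph1* and *Hsp90aa1* were lower in HFD sham, *Hsph1* at 207 and 57.0 CPM in crypts and 215 and 88.7 in villi. *Jun*, an immediate early transcription factor, was higher by 0.68 and 0.52. Of 12 enterocyte genes, 1 was past +0.5 and 3 past −0.5 in crypts (median −0.07), and 2 and 2 in villi (−0.23). *Alpi* was higher by 1.31 and 0.63. Against this, the brush border genes *Sis*, sucrase-isomaltase, and *Slc5a1*, the glucose transporter SGLT1, were lower by 0.63 and 0.62 and by 0.69 and 1.11. In crypts 32.4% and 28.5% of the UMIs of *Sis* came from 1 cell. The direction in crypts turned for *Sis* with a limit of 0.4% for selection (0.31) or of 10% for mitochondrial UMIs (0.10), and for *Slc5a1* with the former (0.69) or without doublets (0.021). With free RNA subtracted by the set fractions neither had a value in crypts.

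Of goblet genes, 5 of 9 were past +0.5 in HFD sham in crypts (median 1.51) and 7 of 10 in villi (0.51). These medians did not hold with each cell thinned to 5000 UMIs, where they were −0.43 and 0.39. Without the dividing progenitors past the goblet, enteroendocrine, tuft or secretory progenitor limits they were 0.16 and 0.018, with *Tff3* at −0.022 in crypts. That removal takes out cells by their goblet genes, so it does not test the medians of those genes. Both alternatives were chosen after the data were seen. *Agr2*, a mucin chaperone, was at 101 and 1338 CPM in the crypts and 791 and 840 in the villi of LFD sham and HFD sham, so the difference lay in the crypts. In the crypts of HFD sham 37.2% of its UMIs came from 1 cell and 8 of 47 cells passed the goblet limit, against 5 of 41 in LFD sham. The level of this lineage in crypts thus rested on few cells. *Lyz1* was higher by 1.73 and 1.39, with 41.1% and 29.7% of its UMIs in HFD sham from 1 cell, and it was one of the criteria of selection. *Akr1c19*, an aldo-keto reductase gene, was higher by 1.10 and 1.86, with at most 19.0% of its UMIs from 1 cell, and it had no value in crypts with free RNA subtracted by the set fractions.

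**Figure D4:**
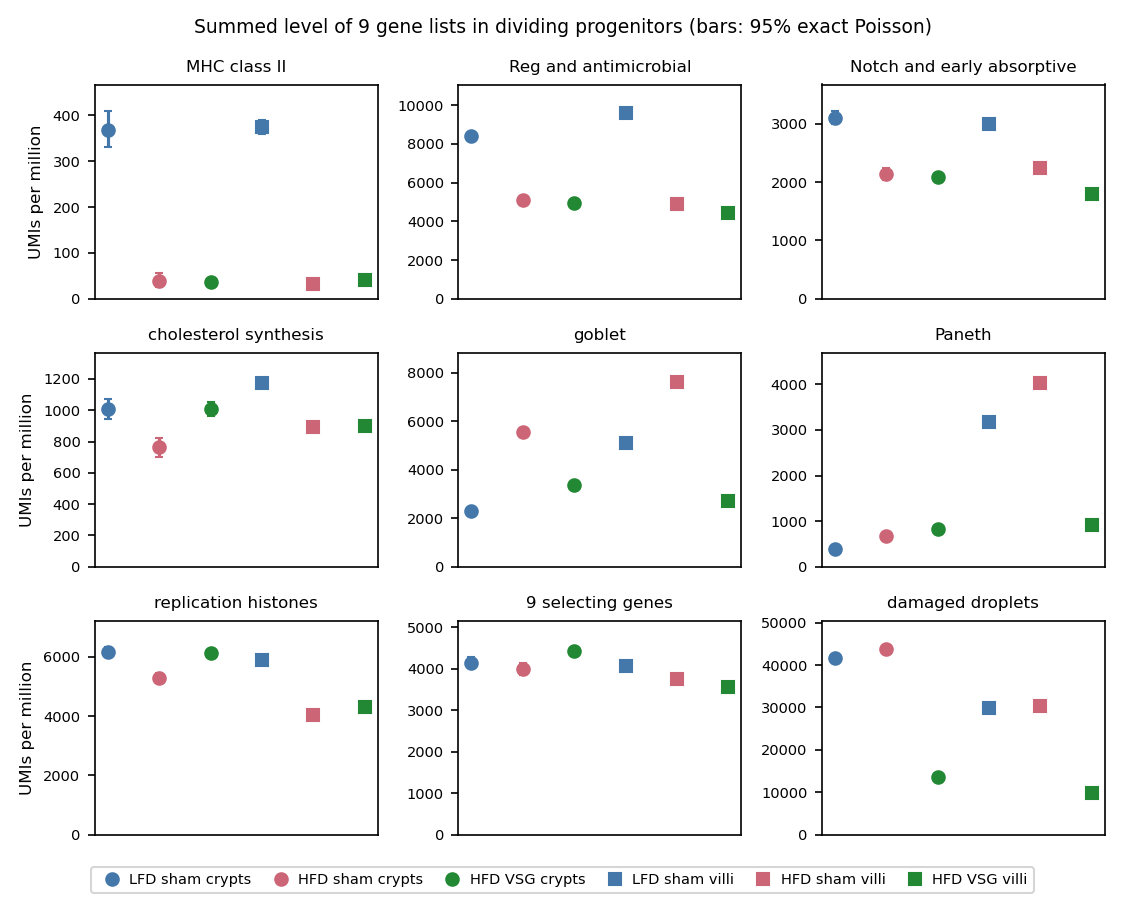
Summed CPM (y axes, each from 0) of 9 gene lists in the dividing progenitors of the 6 libraries, coloured by group and shaped by label, with 95% exact Poisson intervals. MHC class II is high in the 2 LFD libraries alone, the list named damaged droplets is low in the 2 HFD VSG libraries, and the 9 selecting genes stay between 3558 and 4421.

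The surgery comparison set HFD VSG against HFD sham, and in both labels *Aurkb*, *Fos* and *Dusp1* were higher and the gene list named damaged droplets was lower in HFD VSG. In crypts 7.73% of the 6885 genes were past +0.5 and 7.12% past −0.5. In villi 6.75% of 10258 were past +0.5 and 37.3% past −0.5, with a median of −0.30 over all genes, so ratios in villi are to be read against that shift. With median-of-ratios scaling, which removes it, 20.1% and 18.8% were past the limits in villi. Over both labels, 40 genes were past +0.5 and 255 past −0.5.

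Genes of the list named damaged droplets differed in both labels, and whether they mark damage in these libraries was not tested. The median mitochondrial share of the dividing progenitors was 8.59% and 8.63% in the crypts of HFD sham and HFD VSG. In the villi it was 8.56% and 6.86%. *Gm42418*, a locus that overlaps ribosomal RNA, *Gm26917*, *Lars2*, *AY036118* and the nuclear RNA *Malat1* summed to 41705, 43715 and 13512 CPM in crypts and 29859, 30367 and 9947 in villi. *Gm42418* alone was at 32048, 33636 and 7215 in crypts and 21866, 21671 and 5736 in villi, lower in HFD VSG than in HFD sham by 2.22 and 1.92. Droplets with fewer than 100 UMIs followed, at 98835, 100829 and 25223 for the list in crypts and 87659, 72736 and 19126 in villi. The 2 libraries of HFD VSG therefore stood apart from the other 4 in a measure that does not belong to dividing cells, and it moved with every ratio to HFD sham given below. Its part in those ratios was not tested. Free RNA of these genes was lower in HFD VSG too, and with it subtracted by the set fractions *AY036118* turned from −1.36 to 2.94 in villi and had no value in crypts.

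Among cell cycle genes, *Aurkb*, the kinase of the chromosomal passenger complex, was at 79.8 and 126 CPM in the crypts of HFD sham and HFD VSG and 65.7 and 124 in the villi, higher by 0.66 (interval 0.25 to 1.08) and 0.91 (0.69 to 1.14). *H2afx*, the histone variant phosphorylated at DNA breaks, was higher by 0.53 and 1.13, *Hist1h1b* by 0.52 and 0.64, and *Cenph*, a kinetochore gene, by 0.54 (−0.14 to 1.28) and 0.59. Of the replication histones, 2 of 15 were past +0.5 and 0 past −0.5 in crypts, and 4 and 5 of 16 in villi, where their median was −0.05. Of 22 mitotic kinases and switches in villi, 7 were past +0.5 and 2 past −0.5, and of 21 in crypts 2 and 0. Of 24 kinetochore genes in crypts, 7 were past +0.5 and 0 past −0.5, and of 26 in villi 5 and 0. Of 43 other G2/M genes measured in crypts, 4 were past +0.5 and 0 past −0.5, and of 45 in villi 11 and 5. Of the 9 selecting genes, *Nusap1*, a microtubule bundling gene, was past +0.5 in crypts (0.53, interval 0.30 to 0.77), and in villi *Ube2c* was past +0.5 (0.80, 0.72 to 0.89) and *Mki67* past −0.5 (−0.79, −0.85 to −0.74). With median-of-ratios scaling *Ube2c* was 1.10 and *Mki67* −0.49, no longer past −0.5. The selection used the sum of the 9 genes, with a lower limit of 0.2% of UMIs, so nothing is read from the opposite signs. S phase genes in villi were past −0.5 in 13 of 43 and past +0.5 in 3, with a median of −0.11 against −0.30 for all genes. Of all genes in villi 37.3% were past −0.5 and 6.75% past +0.5, so nothing is read from the S phase count.

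Several immediate early genes were higher in HFD VSG. Of the 18 immediate early and heat shock genes, 5 were past +0.5 and 0 past −0.5 in crypts, and 7 and 4 in villi. *Fos* was at 287 and 442 CPM in the crypts of HFD sham and HFD VSG and 177 and 537 in the villi, higher by 0.62 and 1.60. *Dusp1*, a phosphatase induced by stress, was at 11.4 and 39.9 in crypts and 11.5 and 40.9 in villi, higher by 1.81 (interval 0.81 to 2.99) and 1.83 (1.33 to 2.38). With free RNA subtracted by the set fractions, *Dusp1* and *Atf3* were left with under 3 UMIs in a crypt library and have no value there, and with the plateau subtracted they were higher in crypts by 2.11 and 1.40. *Fosb* was higher by 1.35 and 0.81, *Atf3* by 1.11 and 1.69 and *Egr1* by 0.62 and 0.72. Against this, the heat shock genes *Hspa1a* and *Hspa1b* were lower in villi by 3.47 and 3.52 and in crypts by 0.32 (−1.73 to 1.23) and 0.45 (−2.01 to 1.27). *Btg2*, which is also an early response gene, was higher by 0.51 in both labels.

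*Ascl2*, a transcription factor of crypt base stem cells, was at 12.7 and 20.7 CPM in the crypts of HFD sham and HFD VSG and 15.2 and 22.8 in the villi, higher by 0.71 (interval −0.31 to 1.87) and 0.58 (0.12 to 1.07). Of the stem list, 3 of 11 genes were past +0.5 and 0 past −0.5 in crypts, with a median of 0.26, and in villi 1 was past +0.5 and 9 past −0.5 of 13, with a median of −0.55 against −0.30 for all genes. Cholesterol synthesis genes were past +0.5 in 8 of 17 in crypts, with a median of 0.47, and in 5 of 20 in villi, with 3 past −0.5 and a median of 0.09. Free RNA of this list, given with the diet comparison, was also higher in HFD VSG than in HFD sham in both labels. *Fdft1* was higher by 1.20 and 0.64, and *Mvk*, mevalonate kinase, by 0.92 (−0.20 to 2.23) and 0.57. HFD sham is the same library in this and in the diet comparison, so opposite signs in the 2 are not independent.

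In villi, ribosomal protein genes were past +0.5 in HFD VSG in 51 of 76, with a median of 0.60, and nuclear genes of oxidative phosphorylation in 16 of 75, with a median of 0.41. In crypts the medians were 0.19 and 0.06, with 0 past +0.5 in either list. The same sums were higher in the villi of HFD VSG by 0.67 and 0.38 in stem-marker cells and by 1.26 and 0.50 in enterocyte-marker cells, so both other classes had the same direction. Free RNA had it too. In droplets with fewer than 100 UMIs, ribosomal protein genes summed to 57072 CPM in HFD sham and 199170 in HFD VSG villi. Nuclear genes of oxidative phosphorylation summed to 24744 and 49971 there. In crypts the droplet sums were 28392 and 51964 for the first list and 26606 and 36416 for the second. The part of free RNA in these ratios was not tested. The villus-labelled HFD VSG library was also the deepest, with a median of 43230.5 UMIs per dividing progenitor. Its mitochondrial gene *mt-Atp8* was at 258 CPM against 1269 to 2240.4 in the other 5.

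Most goblet genes were lower in HFD VSG in villi, 9 of 10 past −0.5 and 0 past +0.5 with a median of −1.20, and in crypts 4 of 9 were past −0.5 and 1 past +0.5 (2.02) with a median of −0.45. *Tff3*, trefoil factor 3, was at 1477 and 670 CPM in the crypts and 1634 and 788 in the villi of HFD sham and HFD VSG, lower by 1.14 and 1.05. *Fcgbp*, a mucus protein, was lower by 1.63 and 2.06, and *Agr2* by 0.99 and 1.13. The goblet limit was passed by 8 of 47 and 7 of 84 cells in the crypts of HFD sham and HFD VSG and by 25 of 151 and 21 of 282 in the villi. In the crypts of HFD sham 29.2% of the UMIs of *Tff3* and 37.2% of those of *Agr2* came from 1 cell each. Without the dividing progenitors past the goblet, enteroendocrine, tuft or secretory progenitor limits, an alternative chosen after the data were seen, *Tff3* was 0.31 and *Agr2* 0.070 in villi and *Fcgbp* 0.08 in crypts, on the other side of 0. That removal takes out cells by their goblet genes, so it does not test these values. With at most 10% mitochondrial UMIs per cell, *Agr2* was 0.21 in crypts. *Pla2g4c*, a phospholipase A2, and *Gsdmc2*, a gasdermin, were higher in villi by 3.59 and 2.15, with 33.1% of the UMIs of *Pla2g4c* in HFD VSG from 1 cell. Paneth genes were past −0.5 in 10 of 10 in villi, with a median of −1.91, while in crypts 4 of 9 were past +0.5 and 2 past −0.5, with a median of 0.29. *Lyz1*, one of the criteria of selection, was lower by 3.21 in villi and had no value there with free RNA subtracted by the set fractions. In droplets with fewer than 100 UMIs *Lyz1* was at 4456 in HFD sham and 1766 in HFD VSG villi.

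The one comparison with replicates was that between the labels, because the crypt-labelled and villus-labelled suspensions of a group came from the same mice and the 3 pools could stand as replicates. UMIs of the dividing progenitors were summed per library and tested with edgeR's quasi-likelihood test with the pool as a block. Of 10161 genes, 22 were higher in villi (0.217%) and 125 higher in crypts (1.23%) at an adjusted p under 0.05. Without the block the counts were 6 and 55, without the pool of HFD VSG 42 and 110, and with DESeq2 6 and 69.

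Of 178 tested genes of 8 cell cycle lists, which leave out the selecting genes and the list of CDK inhibitors, 0 passed in edgeR or in DESeq2, with a lowest adjusted p of 0.25 in edgeR and 8 at an unadjusted p under 0.05, all 8 higher in crypts. Of all 10161 genes, 417 were higher in crypts and 259 higher in villi at an unadjusted p under 0.05. The median log2 ratio of the 178 cell cycle genes was −0.04, with single genes from −0.59 to 0.75. With 3 pools and 2 residual degrees of freedom, this does not show that the labels held the same cycling cells. The cells of both labels were also chosen for G2/M transcripts, and other G2/M genes rose with the selecting genes across cells. Likeness of the mitotic lists between labels is therefore in part set by the selection, and nothing is read from it.

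Among the lists, those of enterocytes and Paneth cells had 9 genes each past the threshold, and 1 gene each passed of the goblet (*Zg16*), tuft (*Lrmp*), CDK inhibitor (*Cdkn2b*) and damaged droplet (*AY036118*) lists. Of 12 enterocyte genes, 9 were higher in crypts and 0 in villi, and of 10 Paneth genes, 9 were higher in villi and 0 in crypts. *Lyz1*, 1 of these 9, was a criterion of selection, so nothing is read from its value. *Clca4a*, a gene of villus enterocytes, was at 68.3, 51.9 and 35.4 CPM in crypts and 6.99, 4.06 and 0.580 in villi, so that the labels did not overlap, with a log2 ratio of −3.99 (SE 0.29, adjusted p = 3.40e-11, edgeR). *Apoc3*, an apolipoprotein, was at 175, 149 and 207 in crypts and 54.8, 44.7 and 34.6 in villi, with a ratio of −1.95 (SE 0.18, adjusted p = 4.87e-09, edgeR). *Apoc2*, another apolipoprotein, *Selenop*, which carries selenium, and *Pmp22*, a membrane protein, completed the 5 genes higher in crypts with the lowest adjusted p, with ratios of −2.82, −2.80 and −3.95. *Defa30*, an alpha-defensin, was at 52.8, 93.7 and 50.6 in crypts and 313, 437 and 90.3 in villi, overlapping between the labels across groups but higher in villi in each pool, with a ratio of 1.91 (SE 0.21, adjusted p = 1.48e-07, edgeR). *Gm14851*, *AY761184*, *Defa21* and *Gm7861* were the others of the 5 genes higher in villi with the lowest adjusted p, with ratios of 2.99, 2.33, 1.81 and 1.90, and alpha-defensin genes are near-identical copies whose reads may be split or dropped in counting. *Cdkn2b* was the 1 cell cycle inhibitor among the genes higher in villi (adjusted p = 0.0429, edgeR).

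The same genes differed between the labels in the free RNA. Of the 22 genes higher in villi in dividing progenitors, 21 had a higher mean in droplets with fewer than 100 UMIs of the villus-labelled libraries, and of the 125 higher in crypts, 125 had a higher mean in those of the crypt-labelled ones, against 6582 and 3579 of all 10161 genes. *Defa30* was at 1681, 1487 and 1018 CPM in such droplets in crypts and 7945, 9167 and 3362 in villi. *Clca4a* was at 470, 491 and 227 in crypts and 105, 38.8 and 12.5 in villi. Paneth genes summed to 12402, 9239 and 7733 in these droplets in crypts and to 55132, 54448 and 21572 in villi, and enterocyte genes to 65682, 77231 and 91454 and to 28947, 38977 and 34897. With free RNA subtracted by the fractions set for each library, 0 genes were higher in villi and 6 higher in crypts in edgeR, with 157 and 192 at an unadjusted p under 0.05.

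**Figure D5:**
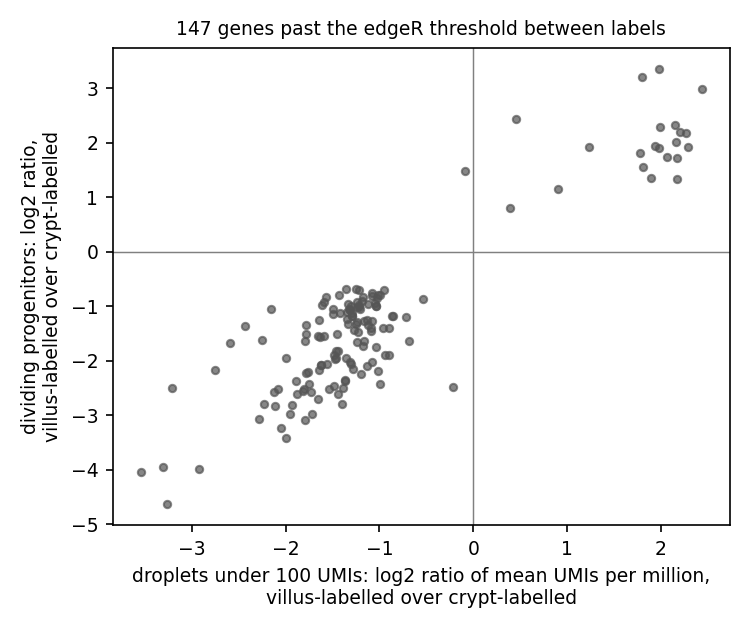
The 147 genes past the edgeR threshold between labels in dividing progenitors, 1 point per gene. The x axis is the log2 ratio of villus-labelled over crypt-labelled mean CPM in droplets with fewer than 100 UMIs, and the y axis the fitted log2 ratio in dividing progenitors. The points lie in the upper right and lower left, with 1 of the 22 genes higher in villi on the other side.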

How the data were processed

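The cells and gene lists were chosen with earlier results of these data known. Per the submitters' processing notes, the authors made the deposited UMI counts with Cell Ranger 6.0.0 on mm10. The counts were whole and equal in the raw and filtered matrices. Depth was 60522766 to 155522445 UMIs per library in called barcodes. UMIs of dividing progenitors were summed per library and scaled to counts per equal library total (CPM). Ratios took sums under 3 as 3, with exact conditional binomial 95% intervals, for genes averaging 20 UMIs or more over the libraries of a label, and all intervals cover counting error only. With 1 pooled library per condition, diet and surgery were not tested.

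The labels were compared with edgeR 4.0.16 in R 4.3.3 (TMM, filterByExpr, quasi-likelihood, Benjamini-Hochberg, threshold 0.05), with the pool as a block because both suspensions of a pool came from the same mice. DESeq2 1.42.0 was an alternative. Other steps used Python 3.11.15, numpy 2.4.6, pandas 2.3.3, scipy 1.17.1 and matplotlib 3.10.9. The scripts were tested on simulated data. Doublets were kept, and an alternative removed the highest-scoring 0.8% per 1000 called barcodes. Free RNA was subtracted, as an alternative only, with a fraction set for each library or as the median content of cell-free droplets per cell. The set fractions took the summed UMIs of LFD sham, HFD sham and HFD VSG in crypts from 965922, 789858 and 1977842 to 937084, 600401 and 1908714. In villi the sums fell from 7011437, 2952297 and 12069463 to 6691424, 2491358 and 11816758. HFD sham thus lost the largest part in both labels, so subtracted ratios that involve HFD sham rest on an unequal removal.

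Genes were named by rule: the 9 selecting genes, the 3 highest of each list and any past 0.5 the same way in both labels, the 3 highest and 3 lowest ratios per comparison among genes averaging 100 UMIs or more, the 5 lowest adjusted p in each direction between labels, and the 15 genes most like the selecting ones. The text gives a selection of these. *Bora*, *Reg1* and *Reg3a* fall under the list rule. *Cdca7*, *Cdk6* and *Myc* were named after their values were seen.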

Additional observations from a re-analysis of the deposited data

Results flagged for a closer look

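Among the genes named by rule, 4 had labels that moved in opposite directions in the same comparison, and the difference between the labels was not tested, since each label had 1 library per group. Of all 6882 genes measured in both labels, 21 were past 0.5 in opposite directions between HFD sham and LFD sham, and 187 between HFD VSG and HFD sham. *Chgb* was higher in HFD sham than in LFD sham in crypts by 7.02 on the log2 scale and was −2.88 in villi, with 99.1% of its UMIs in the crypts of HFD sham from 1 cell. As a mean over cells its value in villi was 0.22, and with free RNA subtracted by the set fractions it had none there. *Zg16*, a goblet cell lectin, was −0.51 in crypts and 1.53 in villi in that comparison, with no value in crypts after that subtraction. In villi 35.1% of the UMIs of *Zg16* in HFD sham and 22.9% in LFD sham came from 1 cell of each library. Between HFD VSG and HFD sham, *Apoc2* was 0.93 in crypts and −0.84 in villi. With each cell thinned to 5000 UMIs *Apoc2* was 0.051 in villi, and after the subtraction by set fractions it had no value in either label. In the same comparison *Kcnq1ot1*, a long noncoding RNA, was 1.11 in crypts and −0.92 in villi, where the median of all genes was −0.30. It had 74 UMIs in the crypts of HFD sham, 23.0% of them from 1 cell.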

How the results depend on the processing

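Each condition had 1 pooled library, so nothing below replaces a replicate. The alternatives without lineage-marked cells, thinned to 5000 UMIs, and without doublets in the test between labels were chosen after seeing the data. Of 1352 list medians over all alternatives, 1294 stayed within the limits set, 56 moved and 2 reversed. Of 1583 ratios of named genes, 1169 stayed, 402 moved and 12 reversed, and of 97 values of genes tested between labels, 90 stayed on their side of the threshold. The causes were not tested. Free RNA subtracted means by the fractions set for each library.

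The share of dividing progenitors, in the order crypts of LFD sham, HFD sham and HFD VSG and then villi, was 1.52, 1.95, 2.43, 9.75, 5.17 and 9.03% with a limit of 0.1% and 0.434, 0.578, 0.956, 2.96, 1.27 and 2.09% with 0.4%. With at most 10% mitochondrial UMIs it was 1.85, 3.51, 4.25, 9.23, 5.33 and 6.40%. In villi of LFD sham it was 7.59% with at least 1500 genes, 8.32% without immune UMIs in the denominator and 7.74% thinned to 1500 UMIs, and in villi of HFD VSG 7.28% and 6.86% under the last 2.

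For HFD against LFD in crypts, the share of genes past −0.5 was 15.9% with the 0.4% limit, the shares past +0.5 and −0.5 were 4.78% and 2.73% with at least 100 UMIs, and 21.0% were past +0.5 with free RNA subtracted. In villi 7.64% were past −0.5 with the 0.4% limit and 7.43% thinned to 5000 UMIs, the shares were 2.23% and 1.69% with at least 100 UMIs, and 8.82% and 7.74% as a mean over cells. For VSG against HFD in crypts they were 11.9% and 11.8% with the 0.4% limit and 1.76% and 2.10% with at least 100 UMIs, with 12.7% past +0.5 as a mean over cells and 17.4% past −0.5 with free RNA subtracted. In villi they were 20.1% and 18.8% with median-of-ratios scaling, and 11.1% and 11.3% were past +0.5 as a mean over cells and thinned to 5000 UMIs.

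Between labels, 22 genes higher in villi and 125 higher in crypts became 6 and 55 without the pairing by pool (no replicate block), 6 and 69 with DESeq2, 11 and 28 with the 0.4% limit, 13 and 56 without doublets, and 0 and 6 with free RNA subtracted, and without a filter 38 were higher in villi. Leaving out a pool gave 19 to 42 and 110 to 145: 19 and 120 without LFD sham, 32 and 145 without HFD sham, and 42 and 110 without HFD VSG.

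Reversed values for HFD against LFD in crypts were *Sis* at 0.31 with the 0.4% limit and 0.10 with at most 10% mitochondrial UMIs, *Slc5a1* at 0.69 with the 0.4% limit and 0.021 without doublets, *Tff3* at −0.022 without lineage-marked cells, and the goblet median at −0.43 thinned to 5000 UMIs. In villi *Chgb* was 0.22 as a mean over cells. For VSG against HFD in crypts, *Agr2* was 0.21 with at most 10% mitochondrial UMIs and *Fcgbp* 0.080 without lineage-marked cells. In villi the enterocyte median was 0.86 and *AY036118* 2.94 with free RNA subtracted, *Agr2* was 0.070 and *Tff3* 0.31 without lineage-marked cells, and *Apoc2* was 0.051 thinned to 5000 UMIs.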
